A study of Homo sapiens with 6 samples.

Results

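The 7 connexin genes, GJA1, GJA3, GJA5, GJB2, GJB5, GJB6 and GJC1, were described in SiHa cells with and without knockdown of VPS13C. They are 7 of the 17156 genes in the deposited gene table and 7 of its 16 connexin genes. The set was chosen by name, knowing that GJA5 was higher and GJB5 lower after knockdown in earlier results of the same contrast. The fold changes of the members in that contrast are therefore given as a description, with no p-value. SiHa is an established line from a human cervical squamous carcinoma. The shcontrol group (3 libraries) carried a control shRNA and the shVPS13C group (3 libraries) an shRNA against VPS13C. Both groups received cisplatin, which links DNA strands through platinum, at 20 µM for 48 h, so a response to the drug itself was not measured. Whether the replicates were separate cultures is not stated, and a p-value here reflects only how far these libraries spread, which may be technical.

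Connexins are membrane proteins that cross the membrane several times. They assemble in rings into hemichannels, and hemichannels of adjacent cells dock to form gap junctions that pass ions and small metabolites. Alpha, beta and gamma subgroups are told apart by sequence, and cells of 1 tissue often mix several of them. Squamous epithelia, the cervix included, use mainly alpha and beta connexins, and loss of gap junctions is a long-known feature of cervical carcinoma.

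The libraries held 15643965 to 16333424 estimated counts, in which 3 counts correspond to 0.184 to 0.192 CPM, the counts scaled to library size. The targeted gene VPS13C stood at 50.0, 54.9 and 49.6 CPM in shcontrol libraries 1, 2 and 3 and at 23.7, 25.1 and 27.5 CPM in shVPS13C libraries 1, 2 and 3. All knockdown libraries were below all controls, and the edgeR quasi-likelihood test gave an adjusted p of 4.77e-10 for a log2 fold change of -1.02 (95% interval -1.15 to -0.88, SE 0.065). Of 12671 genes past the filter on low counts, 570 passed an adjusted p of 0.05, which is 4.50%. The count was 204, 273 and 274 without shVPS13C library 1, 2 and 3 in turn.

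Promoter windows show where the genes start and how their starts differ, and windows from RefSeq (GRCh38.p14) were matched for 5 of the 7 members. GJB5 and GJC1 are described by name and value. Each window runs from 250 bases before an annotated start to 50 bases after it. Both windows of GJA5 are printed because its counts were assigned mainly to a transcript that begins at the internal start. GJA1 and GJB2 are shown for contrast, as 1 window poor in CpG and 1 rich in CpG among members of low level. Capitals mark matches, on either strand, to the GC box GGGCGG, the AP-1 motif TGANTCA and the TATA-like TTAAAA.
GJA5 upstream start, chr1:147773302-147773601, minus strand: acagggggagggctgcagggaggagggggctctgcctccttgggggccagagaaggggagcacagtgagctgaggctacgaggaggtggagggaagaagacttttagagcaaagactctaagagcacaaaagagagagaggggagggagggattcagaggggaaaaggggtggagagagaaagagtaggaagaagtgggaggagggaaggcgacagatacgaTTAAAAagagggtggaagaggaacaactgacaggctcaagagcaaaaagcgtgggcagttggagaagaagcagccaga
GJA5 internal start, chr1:147760553-147760852, minus strand: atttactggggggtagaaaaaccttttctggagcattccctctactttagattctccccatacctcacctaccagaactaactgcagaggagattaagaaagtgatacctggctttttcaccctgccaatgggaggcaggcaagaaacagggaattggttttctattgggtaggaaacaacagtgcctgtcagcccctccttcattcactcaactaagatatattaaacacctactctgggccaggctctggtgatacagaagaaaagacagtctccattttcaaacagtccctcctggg
GJA1, chr6:121435396-121435695, plus strand: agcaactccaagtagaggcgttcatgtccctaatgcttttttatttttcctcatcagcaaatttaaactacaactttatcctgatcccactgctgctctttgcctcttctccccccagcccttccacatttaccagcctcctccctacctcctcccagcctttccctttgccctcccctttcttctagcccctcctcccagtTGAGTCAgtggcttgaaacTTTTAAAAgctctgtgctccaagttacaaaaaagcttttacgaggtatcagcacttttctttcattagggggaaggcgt
GJB2, chr13:20192889-20193188, minus strand: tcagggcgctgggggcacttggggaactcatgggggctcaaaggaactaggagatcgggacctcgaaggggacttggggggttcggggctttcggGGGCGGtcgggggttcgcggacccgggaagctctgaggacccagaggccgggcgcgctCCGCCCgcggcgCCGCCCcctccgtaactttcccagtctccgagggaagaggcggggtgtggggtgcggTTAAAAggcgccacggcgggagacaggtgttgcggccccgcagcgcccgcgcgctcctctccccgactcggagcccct

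The upstream GJA5 window held TTAAAA 28 bases before the start and 4 CpG, at a GC content of 55.3%. The internal GJA5 window held none of the 3 motifs and 0 CpG, at 45.7% GC. GJA1 had a TGAGTCA match 48 bases before its start, followed by an overlapping pair of TTAAAA matches at 29 and 27 bases. GJB2 had 3 GC boxes at 155, 97 and 85 bases before the start and a TTAAAA at 28 bases, with 33 CpG and 71.7% GC. GJA3, not printed, also had 3 GC boxes, with 37 CpG and 74.7% GC. The GJB6 window held none of the motifs and 2 CpG. Of 35116 RefSeq windows, 45.0% held a GC box, 7.71% an AP-1 match and 17.6% TTAAAA, and the median window had 14 CpG and 58.7% GC. A match is a description of the letters and not a test of binding.

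GJA5 encodes connexin 40, an alpha connexin known from atrial muscle and arterial endothelium. It lies at chr1:147756199-147773351 (GRCh38). Its level was 4.12, 4.07 and 5.00 CPM in shcontrol libraries 1, 2 and 3, and 6.50, 7.24 and 7.57 CPM in shVPS13C libraries 1, 2 and 3. The knockdown libraries were all above the controls, and the groups did not overlap. The mean went from 4.40 ± 0.522 to 7.10 ± 0.551 CPM (SD, n = 3 each), a 1.61-fold higher level with a log2 fold change of 0.69 (SE 0.131, interval 0.42 to 0.96). The counts behind these values were 67, 65 and 78 in shcontrol and 106, 114 and 121 in shVPS13C. In GENCODE release 29, 20.3% of GJA5 exon bases lie opposite the antisense gene AC241644.3, and 17.0% of the 50-base stretches of GJA5 also occur in that gene. Use of strand in the counting is not given in the sources used here, so reads of the 2 genes cannot be told apart over those bases.

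GJB5 encodes connexin 31.1, a beta connexin of stratified epithelia, and lies at chr1:34755047-34758512. Its level was 9.23, 7.96 and 10.1 CPM in shcontrol libraries and 6.37, 5.78 and 5.76 CPM in shVPS13C libraries, in order 1, 2 and 3. Every knockdown library was below every control library. The mean went from 9.09 ± 1.06 to 5.97 ± 0.350 CPM (SD, n = 3 each), a fold of 0.658 with a log2 fold change of -0.60 (SE 0.117, interval -0.84 to -0.36). No 50-base stretch of GJB5 occurred in another gene. The counts ran from 127 to 157 in shcontrol and from 91 to 104 in shVPS13C.

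GJB2 encodes connexin 26, a beta connexin of the cochlea and of epidermis that is best known as a gene of inherited deafness. It lies at chr13:20187470-20192938 and was low, at 1.05, 1.32 and 1.28 CPM in shcontrol and 2.08, 1.97 and 1.44 CPM in shVPS13C. The lowest knockdown library stood above the highest control library, by a small margin. The log2 fold change was 0.59 with a wide interval of 0.07 to 1.11 (SE 0.251), from counts of 17 to 21 against 23 to 34. GJB2 did not pass the threshold.

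GJC1 encodes connexin 45, a gamma connexin of cardiac conduction tissue and smooth muscle, and lies at chr17:44794104-44831364. Its values of 5.41, 6.33 and 5.26 CPM in shcontrol and 6.07, 6.98 and 7.95 CPM in shVPS13C overlapped, since shVPS13C library 1 was below shcontrol library 2. The log2 fold change was 0.30 (SE 0.129, interval 0.04 to 0.57). It did not pass the threshold.

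GJA3 encodes connexin 46, an alpha connexin of lens fibre cells, and lies at chr13:20138255-20161565. It measured 5.72, 6.33 and 5.58 CPM in shcontrol and 5.45, 6.16 and 4.94 CPM in shVPS13C. The groups overlapped and the log2 fold change was -0.09 (SE 0.129, interval -0.36 to 0.18). That interval holds differences in either direction, and GJA3 did not pass the threshold.

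GJA1 encodes connexin 43, the most widely used connexin of human tissues, and GJB6 encodes connexin 30, a beta connexin of the cochlea and epidermis. GJA1 (chr6:121435646-121449727) had 5, 1 and 4 counts in shcontrol and 3, 1 and 1 in shVPS13C. The sums of 10 and 5 give a ratio of 0.497 with an interval of 0.133 to 1.60 that covers counting error only. GJB6 (chr13:20221962-20232319) had 1 count, in shVPS13C library 2, and 0 in the other libraries. At a 1-sided confidence of 95%, a library with 0 counts allows a mean of up to 3 counts, which is 0.192 CPM in the smallest library. Neither gene passed the filter on low counts, so neither was tested. Of the 50-base stretches of GJA1, 5.72% also occur in the processed copy GJA1P1.

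Of the 7 members, 5 passed the filter, and among these 1 was called higher (GJA5), 1 lower (GJB5) and 3 not called. Over all tested genes 2.27% were called higher and 2.23% lower. Groups did not overlap for GJA5, GJB2 and GJB5, as for 23.1% of tested genes. The set was selected on this contrast, so nothing is read from these shares. With limma on log2(FPKM + 1) and no filter, neither GJA5 nor GJB5 was called, in a fit that called 24 genes in all.

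**Figure D1:**
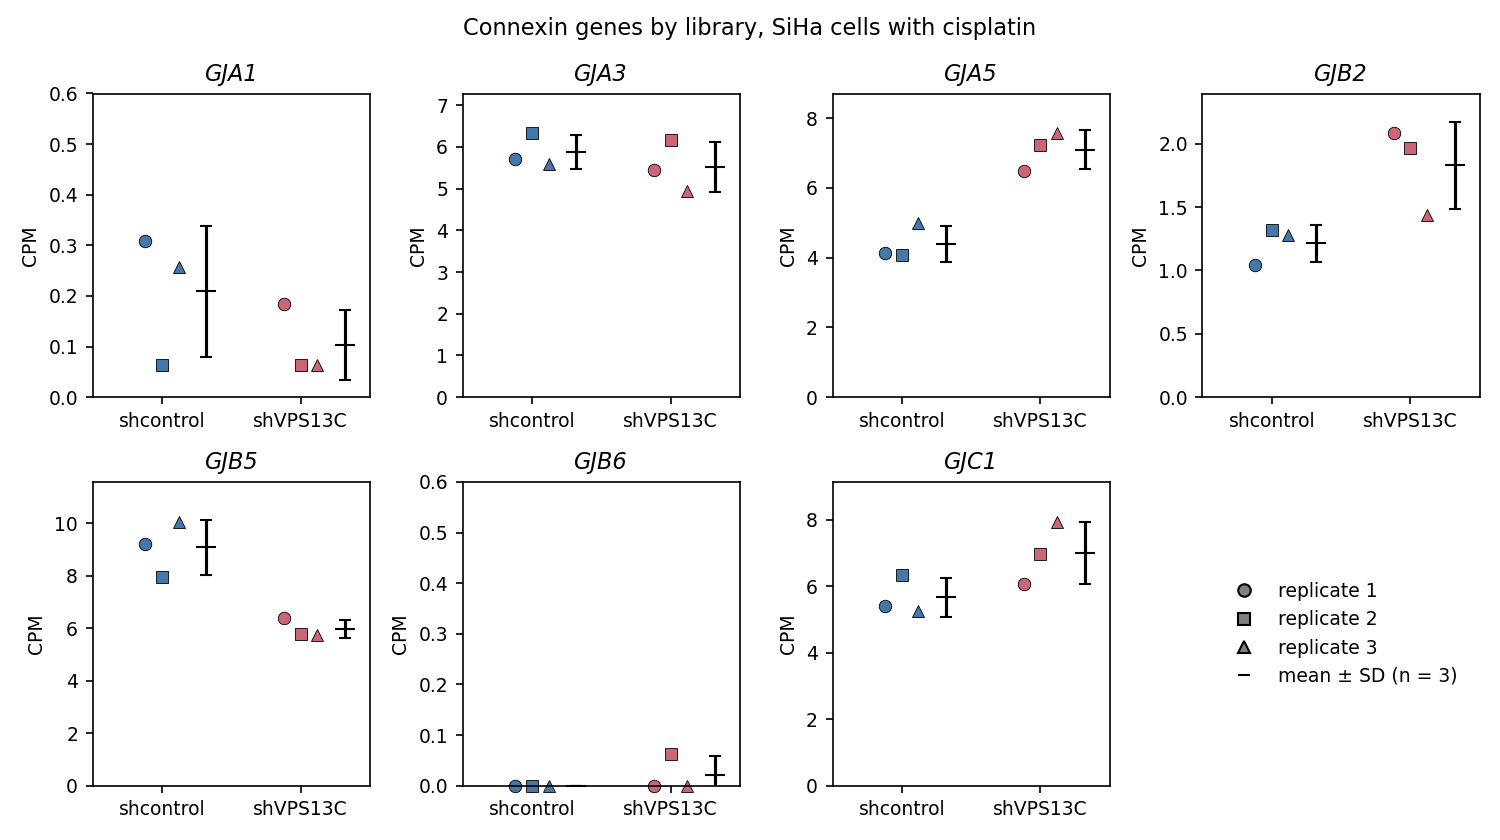
CPM of each connexin gene of the set in the 6 libraries, with the group mean and SD (n = 3). GJA5 lay at 4.07 to 5.00 CPM in shcontrol and 6.50 to 7.57 in shVPS13C, GJB5 at 7.96 to 10.1 and 5.76 to 6.37, and GJA1 and GJB6 near 0.

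Levels of different genes were compared in FPKM, the authors' length-scaled unit. GJB5 was the most abundant of the 7, at a mean of 6.93 FPKM over the 6 libraries. GJA5 followed at 1.96, GJA3 at 1.16, GJC1 at 0.868, GJB2 at 0.760, GJA1 at 0.055 and GJB6 at 0.00667 FPKM. The 6-library ranges of GJB5 and GJA5 and of GJA5 and GJA3 did not overlap. Those of GJA3 and GJC1, GJC1 and GJB2, and GJA1 and GJB6 did. GJB5 stood above 51.8% of listed genes and GJA5 above 37.9%.

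Of the summed FPKM of the 7 genes, GJB5 went from 66.9% ± 2.90 in shcontrol to 49.9% ± 2.59 in shVPS13C (SD, n = 3 each) and GJA5 from 11.9% ± 0.427 to 22.2% ± 1.90. The ratio of GJB5 to GJA5 FPKM was 5.99, 5.27 and 5.62 in shcontrol and 2.61, 2.09 and 2.08 in shVPS13C. These shares follow from the same values that chose the set. In bulk RNA, fewer cells with a transcript and less of it per cell cannot be told apart.

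**Figure D2:**
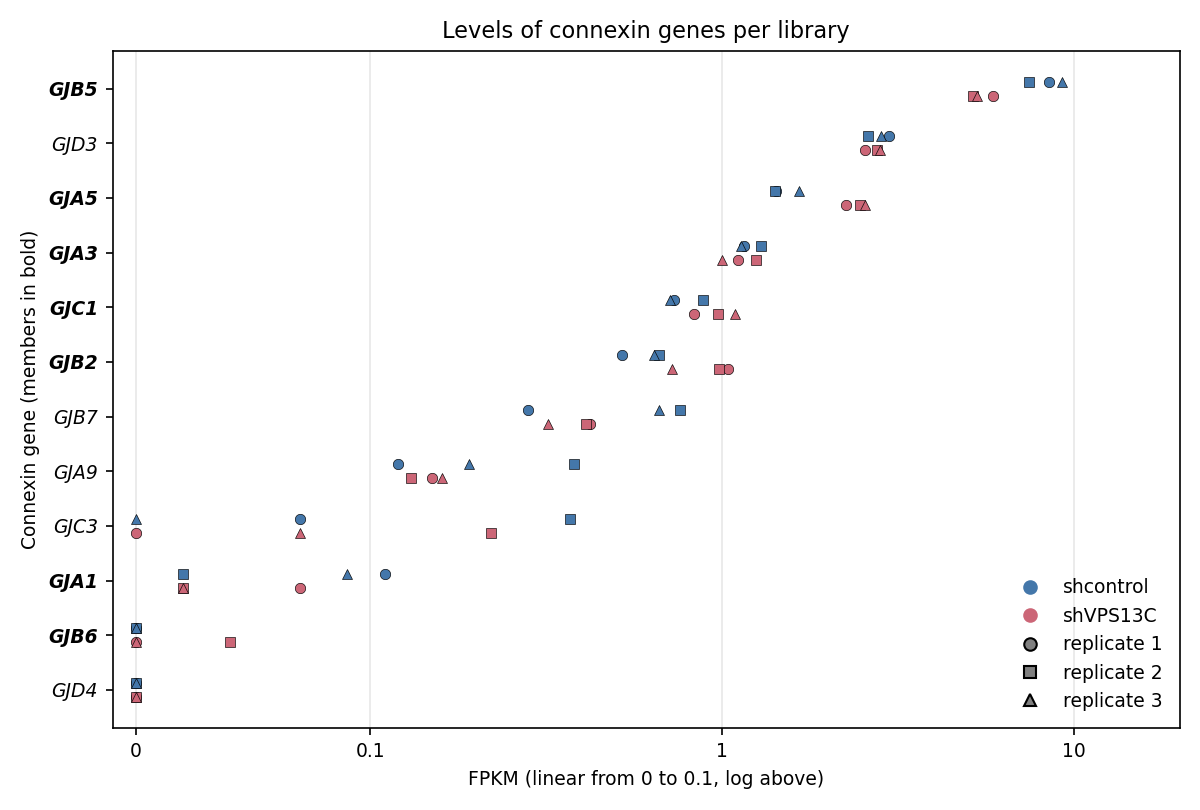
FPKM of the 7 genes (bold) and of further connexin genes, by library, ordered by mean, on an axis that is linear from 0 to 0.1 FPKM and log above. GJB5 averaged 6.93 FPKM and GJA5 1.96 over the 6 libraries, and GJA1 and GJB6 were near the bottom.

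Of the other connexins and pannexins, 12 of the 17 listed were in the table and 6 were tested. None was called by edgeR, DESeq2 or limma, and 0 had an unadjusted p under 0.05. The list's median log2 fold change was -0.04, beside -0.001 over all tested genes. GJD3 stood at 11.4, 9.84 and 10.8 CPM in shcontrol and 9.68, 10.5 and 10.7 in shVPS13C, overlapping, with a log2 fold change of -0.05 (edgeR adjusted p = 0.831, interval -0.25 to 0.15). The pannexin channel genes PANX1 and PANX2 had 0.00 (-0.10 to 0.11) and 0.22 (-0.14 to 0.58), and GJB7 -0.57 (-1.31 to 0.17). GJA9, GJC3, GJD4 and PANX3 were among those that did not pass the filter.

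**Figure D3:**
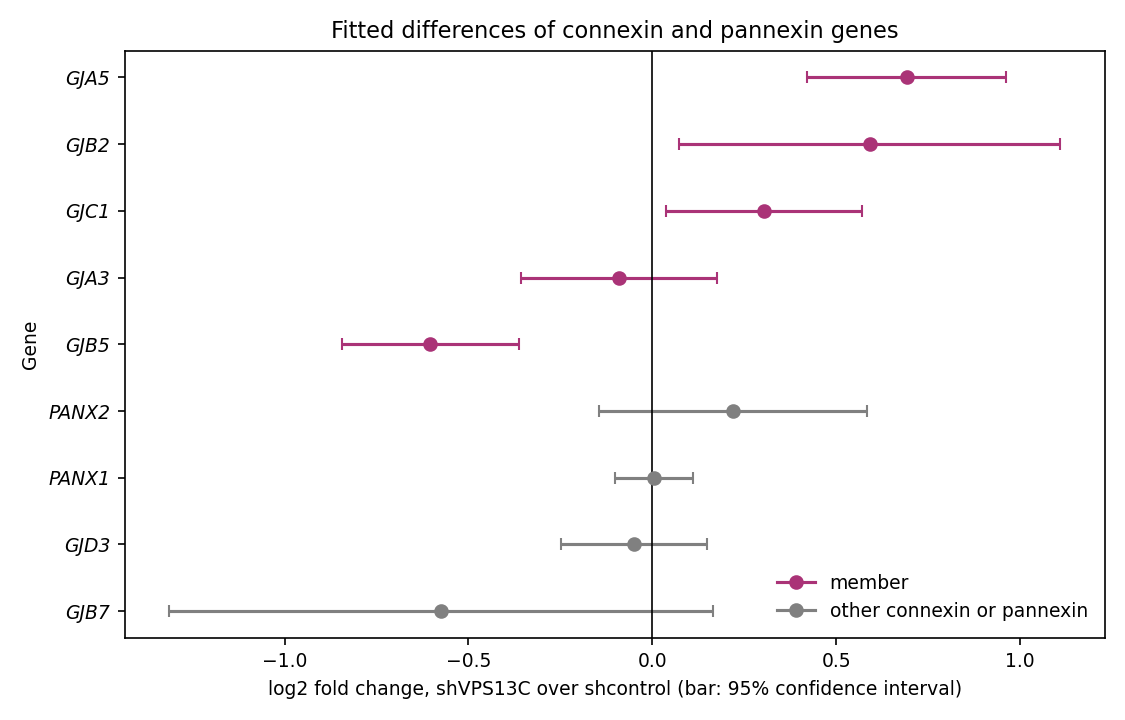
Log2 fold change, shVPS13C over shcontrol, with its 95% confidence interval, for tested connexin and pannexin genes. GJA5 at 0.69 and GJB5 at -0.60 lie on opposite sides of 0, and the intervals of GJD3 and PANX1 span 0.

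GJA5 counts were assigned by the authors mainly to NM_181703.4, with 90.7% to 100% of the gene's counts per library. A second transcript, XM_017001044.1, reached 9.28% in shcontrol library 3. GENCODE places the start of NM_181703 at the internal position, chr1:147760606, and that of NM_005266 at the upstream position, chr1:147773362. NM_005266 is not among the 2 transcripts listed for GJA5, so no count of it is known. The starts of the 2 printed RefSeq windows lie 12749 bases apart. The start of XM_017001044.1 was not determined. Which start was used was not tested. GJB5 had 84.3% to 100% of its counts in NM_005268.4. The GJC1 counts moved between 4 transcripts from library to library, with NM_005497.4 at 0% to 89.8% and XM_024450526.1 at 0% to 100%, so single GJC1 transcripts were not compared between groups. GJA3, GJB2 and GJA1 had all counts in 1 transcript each.

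**Figure D4:**
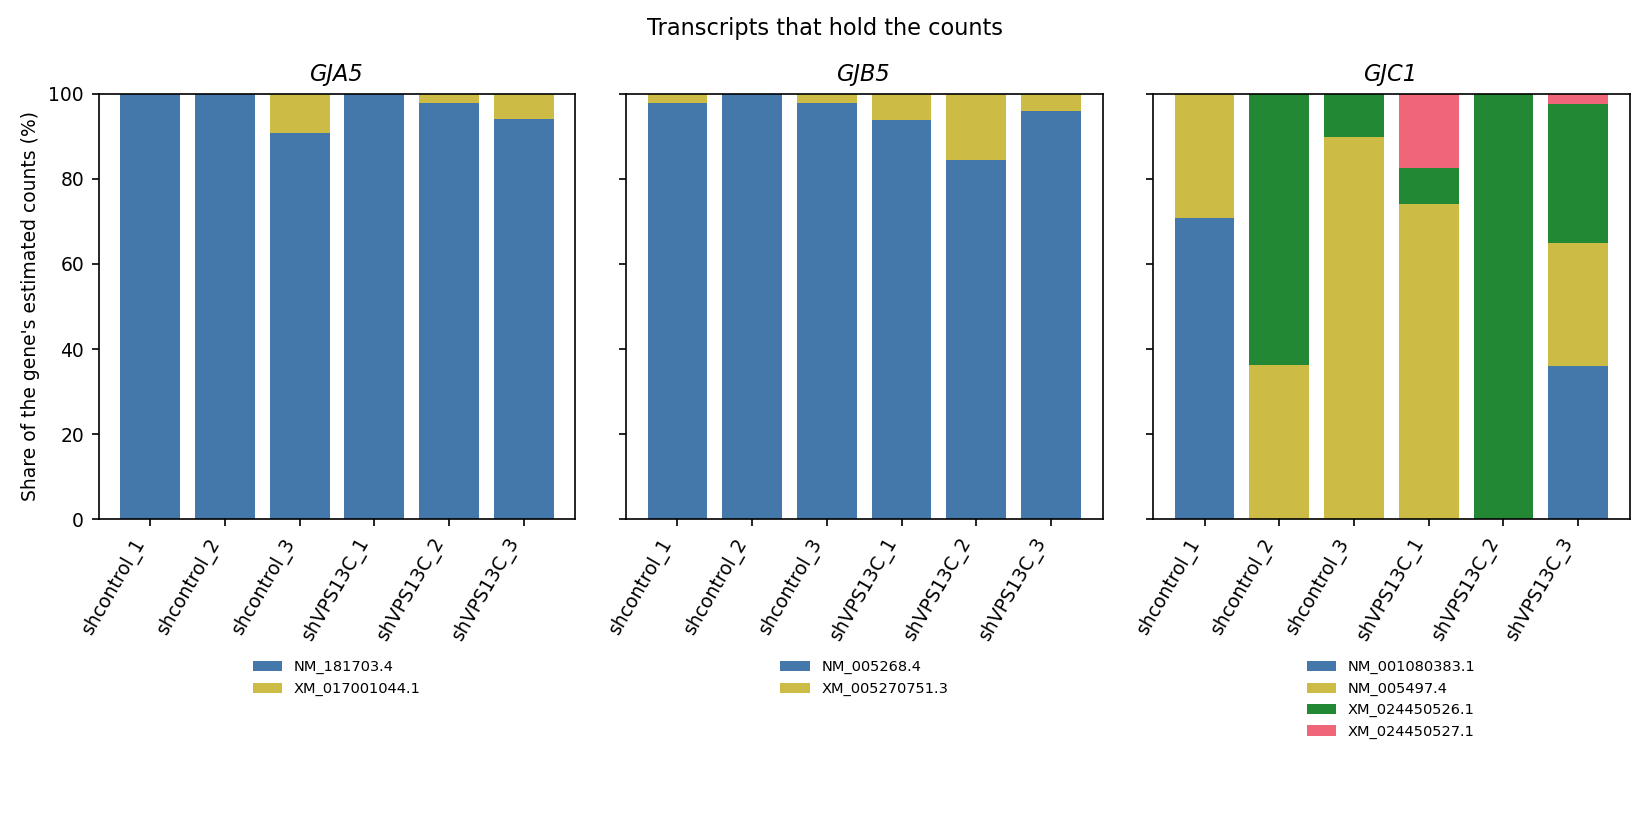
Share of the estimated counts of GJA5, GJB5 and GJC1 assigned to each RefSeq transcript, in percent, by library. One transcript held at least 90.7% for GJA5 and 84.3% for GJB5, while GJC1 shares ran from 0% to 100% between libraries.

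Values of neighbouring genes are given, taken from the 12476 of 12671 tested genes that had coordinates. GJA5 lies between ACP6, 127 kb away, with a log2 fold change of 0.06 (edgeR quasi-likelihood adjusted p = 0.673), and GPR89B, 172 kb away, with 0.19 (adjusted p = 0.0652). At GJB5, the nearest tested gene on the side of lower coordinates was ZSCAN20, 1282 kb away, with -0.15 (adjusted p = 0.402). Distances are between the lower coordinates of the genes. None of these 3 genes was called. ZSCAN20 is too far from GJB5 to show whether the difference at GJB5 extended along the chromosome.

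**Figure D5:**
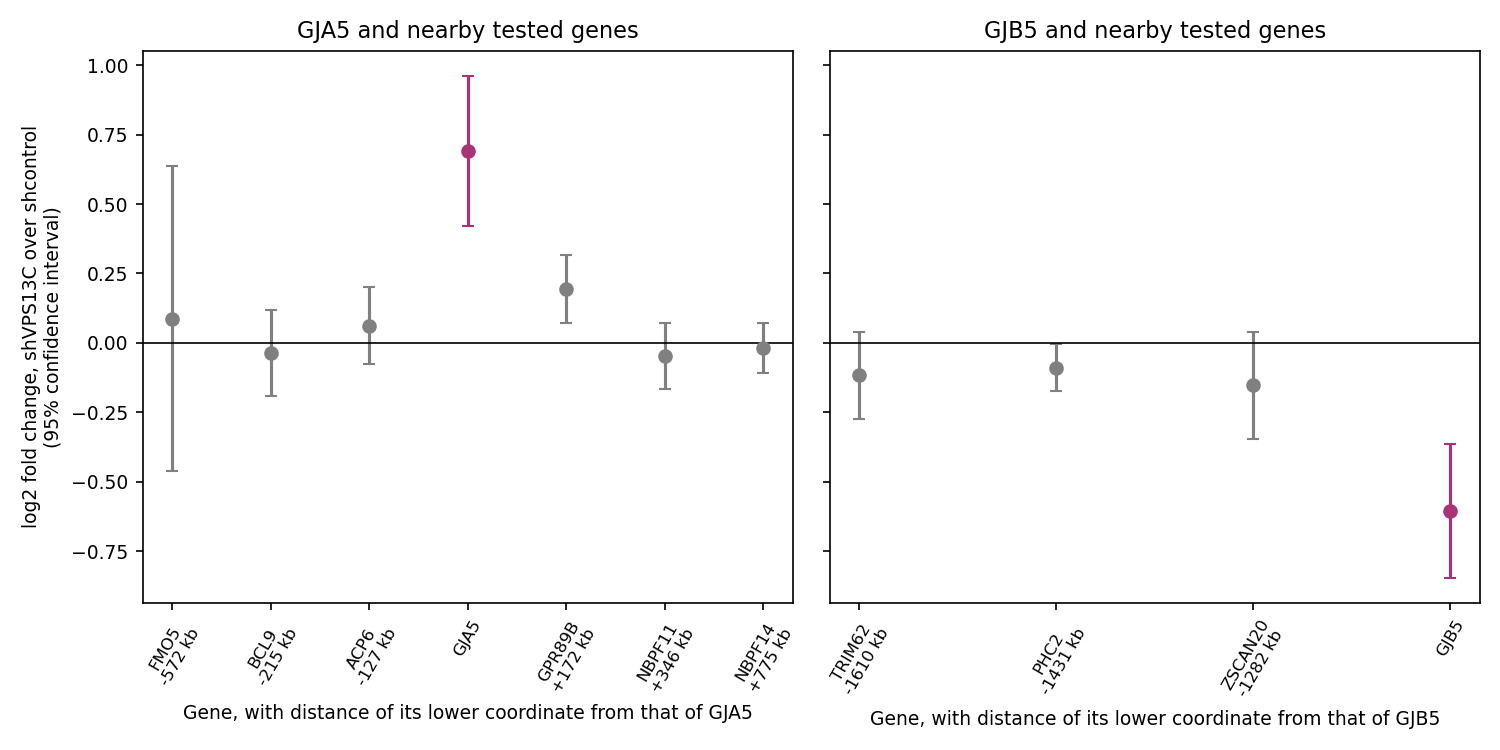
Log2 fold change with 95% confidence interval for GJA5, GJB5 and nearby tested genes, on both sides of GJA5 and on the side of lower coordinates of GJB5, in chromosome order, with distances in kb. GJA5 is at 0.69 beside ACP6 at 0.06 and GPR89B at 0.19, and GJB5 is at -0.60 with ZSCAN20 at -0.15.

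The genes whose profile over the 6 libraries was nearest to that of GJA5, by root mean square difference of centred log2 CPM among 10698 genes, were EPHB2 (0.111), GNAO1 (0.114) and CAMK1D (0.125). EPHB2 measured 9.47 to 10.8 CPM in shcontrol and 13.4 to 14.96 in shVPS13C. For GJB5 they were CHAC1 (0.0705), LRFN1 (0.0966) and TRIB3 (0.0968). CHAC1 went from 16.9 to 22.1 CPM in shcontrol to 12.9 to 13.8 in shVPS13C. Likeness over 6 libraries in 2 groups rests largely on the group difference.

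Of 34 genes of connexin partners, trafficking and turnover, 33 were tested, with 1 higher, 4 lower and 28 not called, where 2.27% of all tested genes were called higher and 2.23% lower. The median log2 fold change of the list was -0.01, beside -0.001 over all tested genes. CDH1, the E-cadherin of adherens junctions, rose from 39.6 ± 0.698 to 47.9 ± 1.002 CPM (log2 fold change 0.27, edgeR quasi-likelihood adjusted p = 0.00359). DBN1, the actin-binding drebrin, which binds connexin 43, fell from 70.5 ± 2.38 to 58.1 ± 1.52 CPM (-0.28, edgeR adjusted p = 0.00113). Among the remaining calls, the plakophilin PKP2 had -0.34 (edgeR adjusted p = 0.0211) and the caveolin CAV1 -0.15 (0.0219). CDH1 was called under all alternatives except the 3 limma fits (adjusted p 0.000686 to 0.093) and DBN1 under all except limma with no filter. The calls of PKP2 and CAV1 each ended under the 3 limma fits and on leaving out single libraries, and that of PKP2 also with DESeq2. CAV1 ended without shcontrol 1 or any 1 shVPS13C library, and PKP2 without shcontrol 1 or 3 or shVPS13C 1 or 2. Over all alternatives the adjusted p ran from 0.0132 to 0.122 for CAV1 and from 0.00511 to 0.199 for PKP2. DESeq2 called 3 genes of the list and limma on FPKM 1.

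Of 28 kinases and phosphatases that act on connexins, 26 were tested and 0 called by edgeR, DESeq2 or limma, with 5 at an unadjusted p under 0.05 and a median of 0.02. With no filter, or with a robust fit, edgeR called 2. The kinase SRC, which phosphorylates connexin 43, measured 61.7 ± 2.80 and 62.7 ± 2.34 CPM (chosen after its values were seen).

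Of 46 transcription factors linked to connexin genes, 38 were tested, with 2 higher, 2 lower and 34 not called, where 4.50% of all tested genes were called in either direction. The median log2 fold change was -0.01, beside -0.001 over all tested genes. The AP-1 subunit FOSL1 fell from 156 ± 7.92 to 133 ± 1.99 CPM (log2 fold change -0.23, edgeR quasi-likelihood adjusted p = 0.00267). The epithelial factor KLF5 fell from 242 ± 3.42 to 210 ± 7.66 CPM (-0.20, edgeR adjusted p = 0.00315). FOS, another AP-1 subunit, had 0.26 (edgeR adjusted p = 0.0265) with overlapping groups. TBX2, a T-box repressor, had 0.71 (edgeR adjusted p = 0.0349), from 1.91 ± 0.198 to 3.12 ± 0.388 CPM. FOSL1 and KLF5 were called under all alternatives except limma with no filter. The FOS call ended without shcontrol 2 or 3 or shVPS13C 1 or 2, with 0.17 without shcontrol 3. FOS was also not called by DESeq2, by the robust edgeR fit or by any limma fit. The TBX2 call ended without any 1 library except shcontrol 3 and under every limma fit, and DESeq2 gave it no adjusted p. Over the alternatives the adjusted p reached 0.167 for TBX2 and 0.363 for FOS.

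Markers of cell types that use these connexins were counted in the same libraries. Genes listed for squamous epithelium summed to 4866 to 5052 CPM in shcontrol and 4685 to 4877 in shVPS13C, and 10 of 15 reached 1 CPM. KRT8 and KRT18 led the sum, at means of 2153 and 1243 CPM. KRT5, KRT14, KRT6A and DSG3 stayed under 1 CPM in every library, and TP63 averaged 1.31 CPM in shcontrol and 1.25 in shVPS13C. The sum is therefore no measure of the whole list, nor of squamous identity. Endothelial markers, relevant to GJA5, summed to 4.49 to 5.32 and 4.04 to 5.52 CPM, with 2 of 10 at 1 CPM or more and TEK at 0. Cardiac and smooth muscle markers, relevant to GJA5 and GJC1, summed to 0.449 to 0.878 and 0.250 to 0.797 CPM, with none at 1 CPM. Leukocyte markers summed to 54.7 to 58.2 and 55.7 to 58.9 CPM, nearly all of it CD68, with PTPRC at 0. Fibroblast markers summed to 15.6 to 16.2 and 20.2 to 23.0 CPM, nearly all of it COL1A1, with 1 of 7 at 1 CPM or more. COL1A1, which passed the threshold, measured 14.7, 14.6 and 14.9 CPM in shcontrol and 20.8, 20.6 and 18.4 in shVPS13C, and was higher in all knockdown libraries. Whether this COL1A1 difference is linked to the connexin values was not tested.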

How the data were processed

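Total RNA of 6 SiHa libraries was read as 50-base single-end reads on DNBSEQ, per the labels. The deposited gene and transcript tables hold estimated counts and FPKM values that the authors computed, per the file headers. The build hg38 is from the submitters' processing notes. Which aligner, counter, annotation and strand setting were used is not given in the sources used here. A further 30 per-sample columns and 16 columns of means were not used.

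After rounding to whole numbers, counts were filtered with filterByExpr (minimum count 10), scaled by TMM and tested with edgeR 4.0.16 quasi-likelihood (R 4.3.3), shVPS13C against shcontrol, two-sided, with Benjamini-Hochberg adjustment over 12671 genes and a threshold of 0.05. FPKM served limma 3.58.1 with a pseudocount of 1 or 0.1, so its fold changes are understated for low genes, and DESeq2 1.42.0 was an alternative. Steps were tested on simulated data. Intervals of sums of counts are exact and, like the floor of 3 counts, cover counting error only. Promoter windows came from RefSeq, overlaps from GENCODE 29.

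The members and lists were chosen with earlier results of these data known. Named genes were the 7 members, VPS13C, the called genes of each list, every other connexin and pannexin in the table, the 3 profiles nearest to GJA5 and to GJB5 at 5 CPM or more, and the nearest tested neighbours. Some genes under this rule are not reported here.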

Additional observations from a re-analysis of the deposited data

How the results depend on the processing

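The members were chosen on this contrast, so their values under the alternatives are a description and support nothing. Limma on log2(FPKM + 1) with no filter called 0 members higher and 0 lower; the cause was not tested. With limma on log2(FPKM + 1), filtered or not, GJA5 was at 0.46 and GJB2 at 0.25 on the log2 scale, where the pseudocount shrinks low genes. Genes called numbered 758 with edgeR and no filter (370 higher, 388 lower), 633 with the robust edgeR fit (324 and 309) and 571 with DESeq2 size factors in edgeR (289 and 282). The DESeq2 test called 342 (178 higher, 164 lower). Limma called 147 on log2(FPKM + 1) (63 and 84), 151 with a pseudocount of 0.1 (64 and 87) and 24 with no filter (7 and 17). Leaving out 1 library gave 204 to 463 (101 to 238 higher, 103 to 225 lower). In the partner list 3 were called with DESeq2, 1 with limma at either pseudocount and 0 with limma and no filter. That list had 6 calls with edgeR and no filter and 2 to 5 without 1 library. Among kinases and phosphatases edgeR called 2 with no filter or a robust fit. Among transcription factors 2 were called with DESeq2 and with limma at either pseudocount, 0 with no limma filter and 2 to 3 without 1 library. Without 1 library GJA5 ran from 0.64 to 0.79, GJB5 from -0.69 to -0.53, GJB2 from 0.49 to 0.74, GJC1 from 0.20 to 0.40 and GJA3 from -0.18 to -0.02. Over all tested genes, deviations from the group mean correlated little between same-numbered libraries (0.0403, -0.00699 and -0.150). Such deviations include counting noise, so whether the numbers pair the libraries is not known. With a replicate block 483 genes were called (250 higher, 233 lower), and the lists gave 0, 5, 0 and 4 calls. In that fit GJA5 was at 0.69, GJB5 at -0.60, GJB2 at 0.59, GJC1 at 0.30 and GJA3 at -0.09. At under 35 counts per library for GJB2 and under 6 for GJA1, depth limits what can be seen.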
